A study of Mus musculus with 10 samples.

Results

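The nuclear-encoded subunits of the mitochondrial respiratory chain and ATP synthase were followed in mouse ear skin across 3 treatment groups. Members were taken by gene name, as every gene of the deposited expression tables whose symbol began with Uqcr or Atp5, was Sdha, Sdhb, Sdhc or Sdhd, or followed the Nduf or Cox subunit pattern. This gave 77 of the 10694 genes in the tables, with 37 named for complex I, 4 for complex II, 8 for complex III, 12 for complex IV and 16 for complex V. The name pattern does not take Cox4i1, Cyc1, Ndufab1 and Cox7a2l, which are given apart below.

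The benzamil group (4 libraries) had 6 days of imiquimod on the skin, which activates Toll-like receptors and is used to model psoriasis, together with benzamil, a blocker of the epithelial sodium channel related to amiloride. The DMSO group (4 libraries) had imiquimod for the same time with the solvent DMSO. The labels name no solvent for the benzamil group, so the channel blocker and DMSO itself cannot be told apart in that comparison. The untreated group (2 libraries) had neither imiquimod nor solvent. All mice were of the strain labelled c57/Bl6 and 6 to 8 weeks old. Every sample label names ear skin, whereas the series' design text names back skin as the untreated control, so body site and treatment cannot be told apart in comparisons with that group. No label says that libraries of a group came from separate animals, so p-values cover the spread among these libraries alone, and that spread may be technical.

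In the inner mitochondrial membrane, complexes I and II feed electrons from NADH and succinate to ubiquinone. Complex III passes them to cytochrome c and complex IV to oxygen. Complexes I, III and IV pump protons, and complex V, the ATP synthase, uses the proton gradient to make ATP. Most subunits are encoded in the nucleus, and a few core subunits of complexes I, III, IV and V in mitochondrial DNA. In skin, keratinocytes, sebocytes, fibroblasts and immune cells all carry these complexes, and the muscle under the skin of the ear is rich in them. In bulk tissue, fewer cells of a type and less RNA per cell cannot be told apart.

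Reads near the 3' end of transcripts were counted, so levels are CPM, the reads of a gene scaled to a common library size, and are not divided by length; a level is compared between groups and not between genes. The libraries were shallow, with 138440 to 375455 reads in benzamil skin, 259262 to 935714 reads in DMSO skin, and 74614 and 71144 reads in untreated skin. A single read was worth 3.03 to 7.94 CPM in benzamil libraries, 1.04 to 3.68 CPM in DMSO libraries, and 13.46 and 14.83 CPM in untreated libraries. A tested member had a median of 80 reads over the 4 benzamil libraries, 243 over the 4 DMSO libraries and 9 over both untreated libraries, so untreated levels were imprecise. Basal keratins were abundant in every group, with Krt14 averaging 9606, 10990 and 4412 CPM in benzamil, DMSO and untreated skin. Of the 77 members, 71 had enough reads for a test and 6 did not.

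Many respiratory genes are transcribed from promoters bound by NRF1 and by the ETS factor GABP, so the 250 bases before the transcription start were searched on both strands for the letters CATGCGC (NRF1) and CCGGAAG (ETS). RefSeq promoters on GRCm38.p6 were matched for 65 of the 77 members. NRF1 letters were in 13.8% of these windows, against 3.3% of the 27025 promoters of all genes. That background was not limited to genes of the expression tables, from which the members came. ETS letters were in 16.9%, against 7.1% of all promoters, and 26.2% of the members' windows held either, against 10.0% of all. Among members that were lower with benzamil (below), 3 of 21 windows held either motif (14.3%), and among the other members 14 of 44 did (31.8%). These shares are descriptions of letters in a window, and whether they differ was not tested. The following 3 windows overlap no annotated exon and are shown as Atp5g3, among the most strongly lowered members with benzamil, Ndufb2, the 1 member called higher with benzamil, and Ndufb6, which was not called and whose window holds both motifs. Motif letters are in capitals, reading either strand, and no capitals means that neither was found.
Atp5g3, chr2:73911327-73911576, minus strand: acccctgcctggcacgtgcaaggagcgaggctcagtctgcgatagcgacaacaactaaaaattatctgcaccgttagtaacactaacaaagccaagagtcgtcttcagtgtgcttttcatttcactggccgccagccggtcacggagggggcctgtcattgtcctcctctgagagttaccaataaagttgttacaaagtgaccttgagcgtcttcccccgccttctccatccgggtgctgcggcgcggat
Ndufb2, chr6:39592315-39592564, plus strand: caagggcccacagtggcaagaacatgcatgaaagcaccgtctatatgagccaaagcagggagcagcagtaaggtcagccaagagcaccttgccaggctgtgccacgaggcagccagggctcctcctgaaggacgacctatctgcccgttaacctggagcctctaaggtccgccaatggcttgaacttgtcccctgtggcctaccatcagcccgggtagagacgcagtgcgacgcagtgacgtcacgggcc
Ndufb6, chr4:40279422-40279671, minus strand: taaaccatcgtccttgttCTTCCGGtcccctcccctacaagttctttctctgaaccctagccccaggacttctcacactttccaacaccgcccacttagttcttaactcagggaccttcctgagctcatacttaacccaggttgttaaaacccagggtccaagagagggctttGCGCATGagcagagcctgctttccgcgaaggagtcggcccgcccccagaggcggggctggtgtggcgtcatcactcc

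Benzamil skin was compared with DMSO skin to ask how respiratory gene expression in imiquimod-treated skin differed with the channel blocker. Of the 71 tested members, 22 fell with benzamil and 1 rose, at an adjusted p under 0.05 in edgeR's quasi-likelihood test over all 5245 genes tested. The members that fell were 31.0% of those tested, against 12.1% of all genes tested, and the 1 that rose was 1.41%, against 9.91% of all genes. The median log2 fold change was -0.50 over the tested members and -0.01 over all genes, and 56 of the 71 were below 0. Every complex contributed. Called lower were 9 of 35 members of complex I, 2 of 4 of complex II, 2 of 8 of complex III, 3 of 9 of complex IV and 6 of 15 of complex V, with medians of -0.43, -0.79, -0.35, -0.66 and -0.72. In 23 of the 71 members every benzamil library was below every DMSO library, and that is 13.4% over all genes. DESeq2 called 21 of 72 members lower (29.2%, against 8.36% of all genes) and 0 higher (5.14% of all genes). In limma on the deposited values 20 of 77 were lower (26%, against 7.08%) and 0 higher (3.97% of all genes).

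The call count moved with single libraries. It was 11 lower members without DMSO library 1, the deepest, and it was 9 without benzamil libraries 3 and 4, the shallowest of that group. Of the 22 members, 11 kept their call in every fit that left out 1 library and could test them: Ndufa4, Atp5g3, Atp5b, Uqcrfs1, Sdhd, Ndufa1, Ndufb8, Ndufc2, Atp5pb, Ndufb5 and Ndufa8. The other 11 lost it in at least 1 such fit, 10 of them without DMSO library 1, with adjusted p of 0.0522 to 0.185. Of these 11, 8 lost it without benzamil library 1 (adjusted p 0.0515 to 0.115), 7 without benzamil library 3 (0.0514 to 0.117), 6 without DMSO library 2 (0.0502 to 0.0708), 4 without benzamil library 4 (0.0587 to 0.0778), 3 without DMSO library 3 (0.0528 to 0.0604) and 1 without benzamil library 2 (0.0636). With total counts in place of scaled library sizes, 35 members were called lower, and over all genes 248 were higher and 1009 lower in place of 520 and 635. That scaling moved the median of all genes to -0.26 and that of the members to -0.75, a shift common to all genes that by construction leaves the distance between them as it was. In limma on the deposited log2 values, the medians were -0.32 over the members and -0.07 over all genes.

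**Figure D1:**
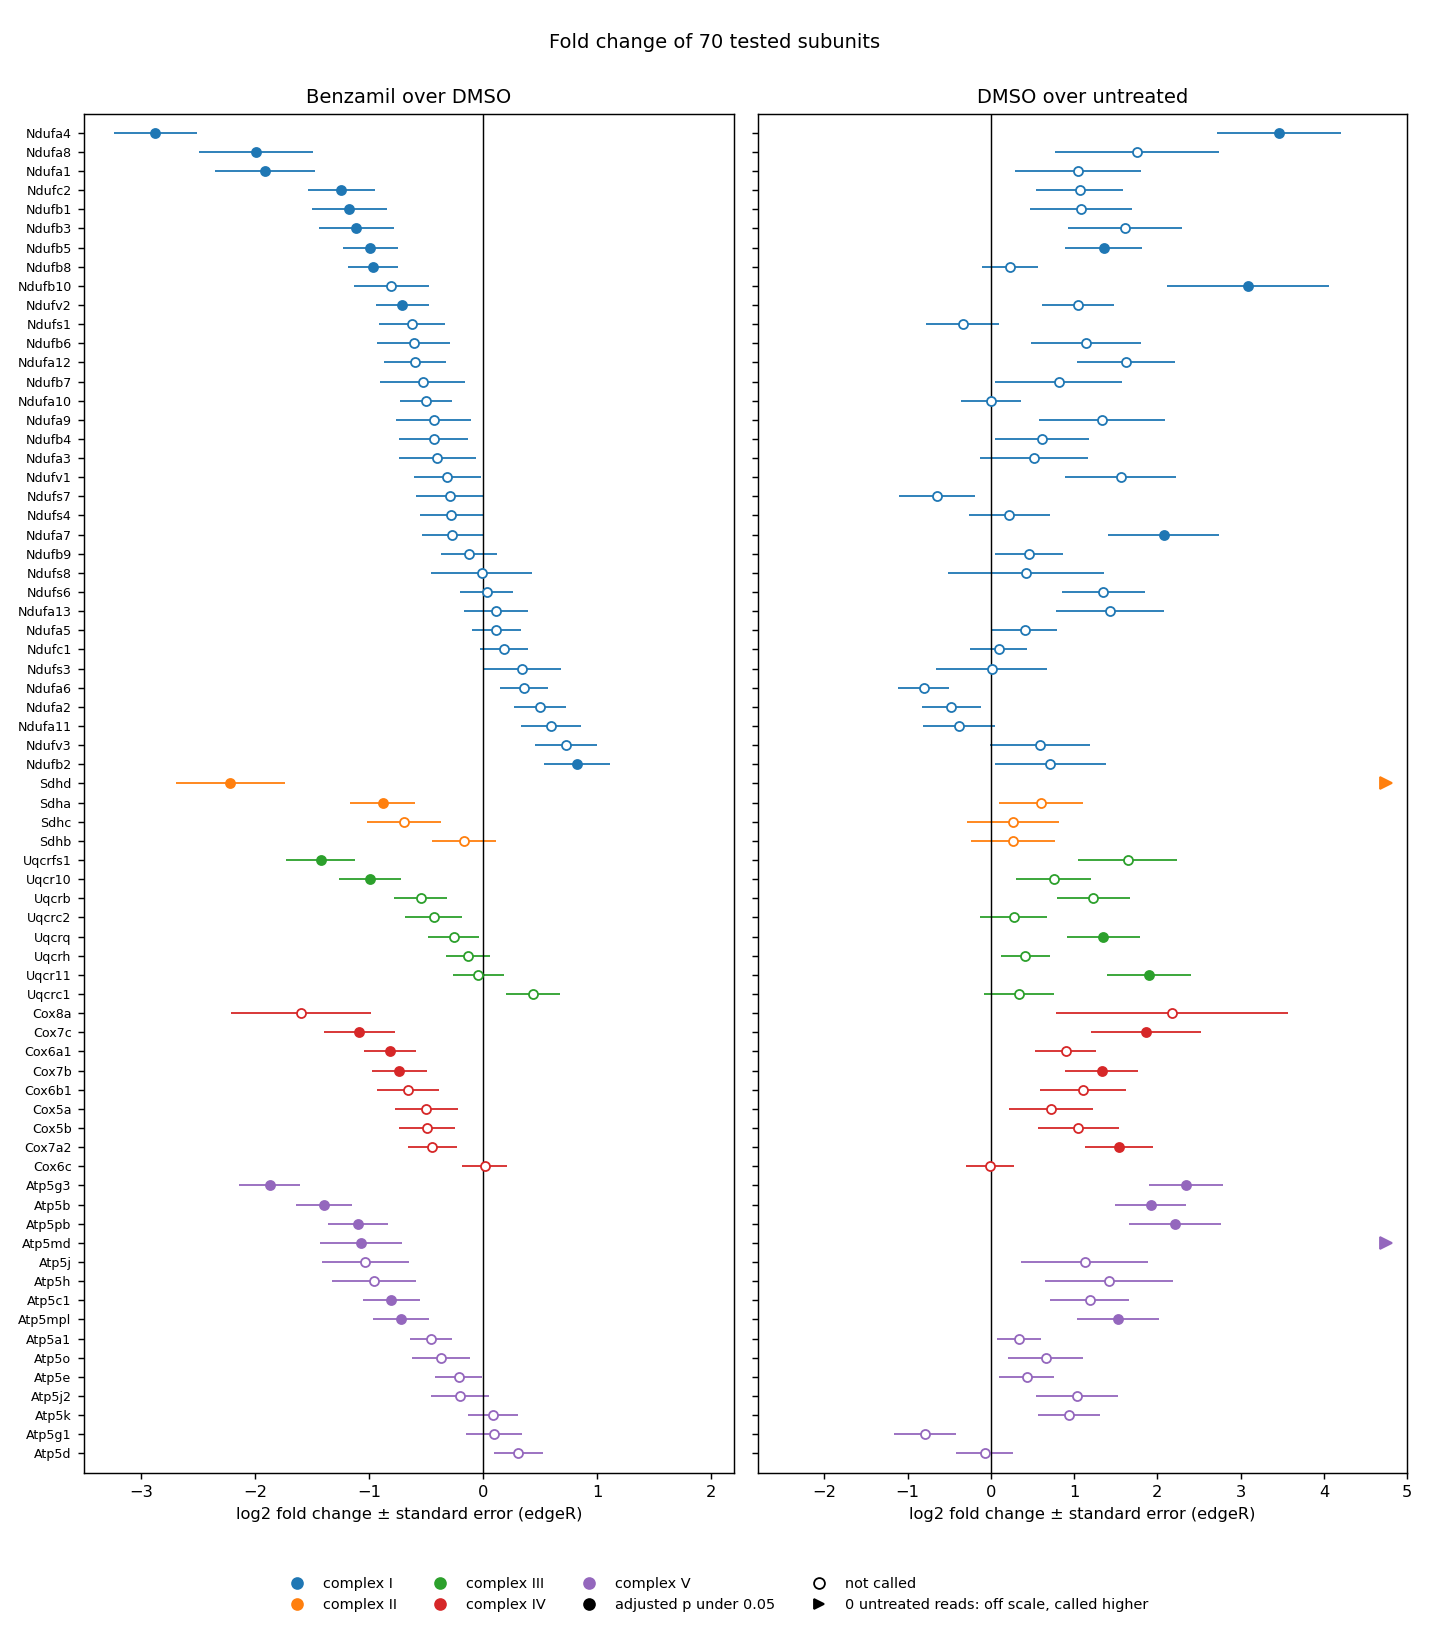
Log2 fold change (horizontal axis, with standard error) of 70 of the 71 tested subunits for benzamil over DMSO (left) and DMSO over untreated skin (right), by complex and ordered by the left panel; filled points have an edgeR adjusted p under 0.05. On the left 22 filled points lie below 0 and 1 above it, and on the right 15 are above 0, of which 2 (triangles) have 0 untreated reads and no fold on this scale.

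Summed over the 76 members measured in all 3 groups, the level was 7634, 8527, 6538 and 8760 CPM in benzamil libraries 1 to 4, and 12320, 10910, 9679 and 9538 CPM in DMSO libraries 1 to 4. The groups did not overlap, and the means were 7865 ± 1009 and 10610 ± 1297 CPM (SD, n = 4 each). The untreated libraries held 6609 and 6348 CPM, below every DMSO library and within the range of the benzamil libraries or just under it. Complex V behaved likewise, with 2357, 2678, 1774 and 2255 CPM in benzamil libraries and 4234, 3652, 3175 and 3040 CPM in DMSO libraries. Complexes II and IV did not overlap between benzamil and DMSO either, whereas the sums of complexes I and III did, through benzamil library 4, which held 3510 CPM of complex I against 3329 to 4018 CPM in DMSO libraries.

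**Figure D2:**
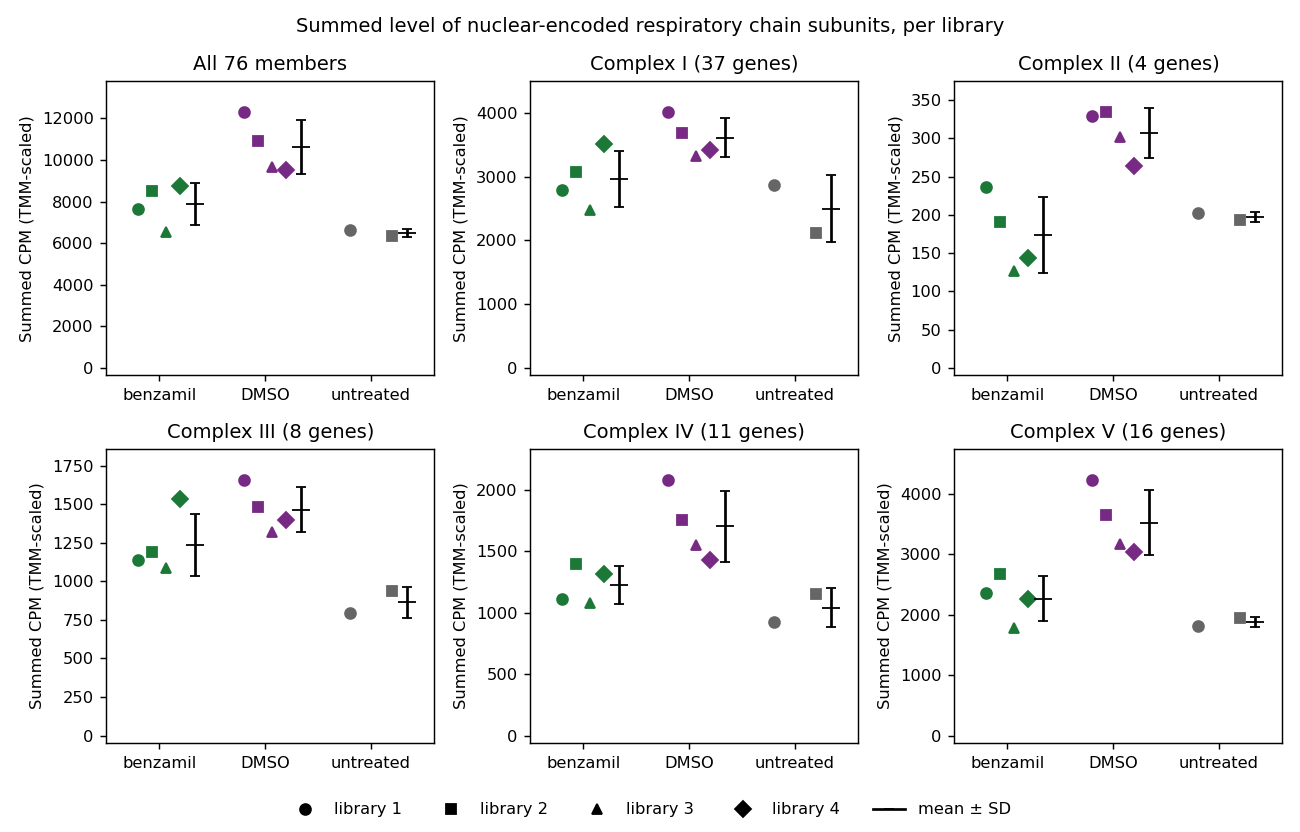
Summed CPM (vertical axis) of all 76 members measured in every group and of each complex, for the benzamil, DMSO and untreated libraries; a symbol is a library and the dash with bars the mean ± SD. Benzamil and DMSO libraries do not overlap for all members and for complexes II, IV and V, and overlap for complexes I and III.

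Among the genes named for complex I, the NADH dehydrogenase, Ndufa4 (chromosome 6, 11900292 to 11907497, mm10) changed most. It was first assigned to complex I and is now known as a subunit of cytochrome oxidase. Its level was 36.4, 26.7, 26.7 and 39.7 CPM in benzamil libraries 1 to 4, against 405, 162, 177 and 169 CPM in DMSO libraries 1 to 4. All benzamil libraries lay far below all DMSO libraries, and DMSO library 1 stood above the other 3. The log2 fold change was -2.88 ± 0.37 (edgeR adjusted p = 7.01e-06), and -2.38 without DMSO library 1.

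Ndufa8, an accessory subunit with paired cysteine motifs on the intermembrane-space side, had 24.3, 6.68, 6.67 and 0 CPM in benzamil libraries, against 63.4, 35.1, 51.5 and 36.1 CPM in DMSO libraries. The groups did not overlap, but these levels rest on 11 benzamil reads in all and 101 DMSO reads. It fell by 1.99 on the log2 scale (± 0.50, edgeR adjusted p = 0.00602). Ndufa1, a small X-linked subunit of the membrane arm, had 18.2, 20.0, 13.3 and 0 CPM in benzamil libraries, against 83.1, 51.3, 51.5 and 33.3 CPM in DMSO libraries. It did not overlap either, and fell by 1.92 (± 0.44, adjusted p = 0.00272).

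Of the accessory subunits of the membrane arm, Ndufb8 varied little within groups, though a gene annotated on the same strand overlaps its last 1000 bases. It had 91.0, 90.2, 86.7 and 111 CPM in benzamil libraries, against 173, 211, 191 and 161 CPM in DMSO libraries, and it fell by 0.97 (± 0.22, edgeR adjusted p = 0.00279). Ndufc2 fell by 1.24 (adjusted p = 0.00372) and Ndufb5 by 0.99 (adjusted p = 0.00461). Ndufb3 fell by 1.11. The identifier named Ndufb1 in the deposited tables fell by 1.17, and GENCODE M21 annotates it not as protein-coding but as a non-coding RNA, Ndufb1-ps. It is included in the counts over complex I and over all members. Ndufv2, a core iron-sulfur subunit of the module that oxidises NADH, fell by 0.71 (edgeR adjusted p = 0.029). It had 91.0, 104, 73.4 and 79.4 CPM in benzamil libraries, against 149, 143, 158 and 136 CPM in DMSO libraries. Its call was lost in 6 of 8 fits without 1 library (edgeR adjusted p 0.0531 to 0.0727). Other core subunits were not called between benzamil and DMSO, with log2 fold changes of -0.62 for Ndufs1, -0.31 for Ndufv1, -0.29 for Ndufs7, -0.01 for Ndufs8 and 0.34 for Ndufs3.

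The complex I members also held the 1 call in the other direction. Ndufb2 had 66.7, 110, 86.7 and 175 CPM in benzamil libraries, against 50.9, 48.6, 69.9 and 69.4 CPM in DMSO libraries. The groups overlapped through benzamil library 1, and benzamil library 4 was highest. The log2 fold change was 0.83 ± 0.29 (edgeR adjusted p = 0.0419). The call was lost without benzamil library 4 (0.60, adjusted p = 0.156), DMSO library 1 (0.73, 0.138), DMSO library 2 (0.76, 0.109), benzamil library 2 (0.79, 0.0974) or benzamil library 3 (0.87, 0.0622). Braf overlaps the last 1000 bases of Ndufb2 on the opposite strand, and strand use in the counting is not given in the sources used here. Ndufc1, the member of complex I with the highest CPM, was not called, at 221, 190, 220 and 310 CPM in benzamil libraries, against 193, 238, 158 and 219 CPM in DMSO libraries.

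Complex II, succinate dehydrogenase, is made of a flavoprotein (Sdha), an iron-sulfur protein (Sdhb) and membrane anchors (Sdhc and Sdhd). The anchor Sdhd (chromosome 9, 50596357 to 50603812, mm10) had 12.1, 13.4, 0 and 15.9 CPM in benzamil libraries, against 70.7, 54.0, 33.1 and 38.9 CPM in DMSO libraries. All DMSO libraries were at least 33.1 CPM and no benzamil library passed 15.9 CPM, on 10 benzamil and 111 DMSO reads. It fell by 2.22 (± 0.48, edgeR adjusted p = 0.00178). Sdha had 72.8, 53.4, 33.4 and 31.8 CPM in benzamil libraries, against 104, 108, 92.0 and 80.5 CPM in DMSO libraries, and fell by 0.88 (± 0.29, adjusted p = 0.0292). Its groups did not overlap, yet its call was lost in 5 of 8 fits without 1 library (adjusted p 0.0636 to 0.0822). Sdhc (-0.69, adjusted p = 0.122) and Sdhb (-0.17, adjusted p = 0.713) were not called.

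In complex III, the cytochrome bc1 complex, the Rieske iron-sulfur protein Uqcrfs1 (chromosome 13, 30540308 to 30545362, mm10) changed most. It had 54.6, 40.1, 33.4 and 23.8 CPM in benzamil libraries, against 152, 99.9, 80.9 and 94.4 CPM in DMSO libraries. The groups did not overlap and it fell by 1.43 (± 0.30, edgeR adjusted p = 0.00156). The small subunit Uqcr10 fell by 0.99 (adjusted p = 0.00982), with overlap, and lost its call without benzamil library 1 or DMSO library 1 (adjusted p 0.0727 and 0.0522). The core proteins Uqcrc1 (0.43) and Uqcrc2 (-0.43) had fold changes of opposite sign and neither was called. Uqcrh, the complex III member with the highest CPM, had 370, 291, 300 and 342 CPM in benzamil libraries, against 400, 416, 280 and 322 CPM in DMSO libraries (log2 fold change -0.13, adjusted p = 0.67). Its groups overlapped.

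In complex IV, cytochrome oxidase, 3 accessory subunits fell. Cox6a1 (chromosome 5, 115345642 to 115348981, mm10) had 182, 247, 167 and 175 CPM in benzamil libraries, against 423, 324, 291 and 330 CPM in DMSO libraries. Its groups did not overlap, and it fell by 0.82 (± 0.23, edgeR adjusted p = 0.0132), a call lost without DMSO library 1 or benzamil library 1 (adjusted p up to 0.0583). Cox7c had 48.5, 53.4, 40.0 and 47.7 CPM in benzamil libraries, against 134, 86.4, 103 and 77.7 CPM in DMSO libraries, and fell by 1.09 (± 0.31, adjusted p = 0.0136; 0.0805 without DMSO library 1). A small gene overlaps the end of Cox7c on the same strand. Cox7b fell by 0.73 (adjusted p = 0.028), with benzamil library 2 at 194 CPM, above the lowest DMSO library at 192 CPM. That call was lost in 6 of 8 fits without 1 library (edgeR adjusted p up to 0.0942). Cox6c, the member of complex IV with the highest CPM, had 300, 331, 434 and 500 CPM in benzamil libraries, against 431, 405, 361 and 311 CPM in DMSO libraries. Its groups overlapped widely, with a log2 fold change of 0.01 (adjusted p = 0.974).

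Complex V, the ATP synthase, held the strongest calls by adjusted p after Ndufa4. Atp5g3 (chromosome 2, 73908447 to 73911326, mm10) encodes the subunit of the rotating membrane ring. Its level was 258, 254, 100.1 and 71.5 CPM in benzamil libraries 1 to 4, against 816, 791, 537 and 564 CPM in DMSO libraries. Every DMSO library was above every benzamil library, and benzamil libraries 3 and 4 were lowest. It fell by 1.87 (± 0.27, edgeR adjusted p = 3.11e-05). Atp5g1 encodes the same mature ring protein from another gene and was not called. Its level was 78.9, 107, 107 and 143 CPM in benzamil libraries, against 92.5, 99.9, 84.6 and 114 CPM in DMSO libraries (log2 fold change 0.10, adjusted p = 0.811). Whether the paralogs differ in response was not tested.

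The catalytic subunit gene Atp5b (chromosome 10, 128083273 to 128090391, mm10) had 188, 167, 86.7 and 151 CPM in benzamil libraries, against 505, 421, 342 and 333 CPM in DMSO libraries. The groups did not overlap and it fell by 1.40 (± 0.25, edgeR adjusted p = 0.000252). Atp5a1, its partner in the catalytic head and the complex V member with the highest CPM, averaged 439 ± 71.7 CPM in benzamil skin and 604 ± 73.5 CPM in DMSO skin (SD, n = 4 each), and did not pass the test (-0.45 ± 0.19, adjusted p = 0.0806). The peripheral stalk gene Atp5pb fell by 1.10 (adjusted p = 0.00421) and the central stalk gene Atp5c1 by 0.80 (adjusted p = 0.0215). The call of Atp5c1 was lost in 4 of 8 fits without 1 library (edgeR adjusted p up to 0.0891). The small membrane subunits Atp5md and Atp5mpl fell by 1.07 and 0.72, with adjusted p of 0.0339 and 0.036, and each lost its call without several single libraries (highest adjusted p 0.185 and 0.184). The remaining members of complex V had log2 fold changes between -1.03 (Atp5j) and 0.31 (Atp5d).

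**Figure D3:**
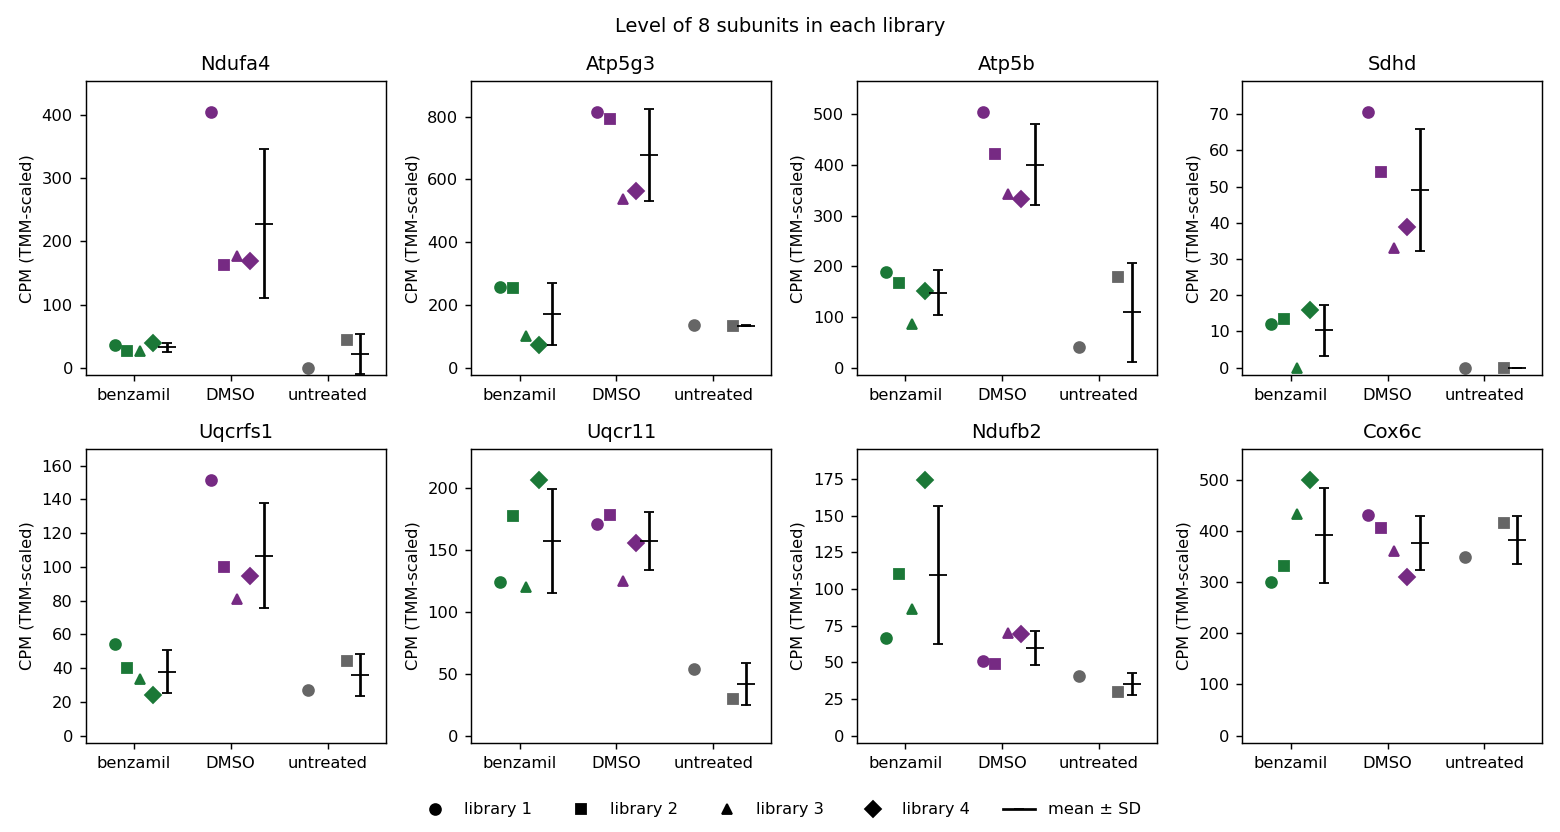
CPM (vertical axis) of 8 subunits in each benzamil, DMSO and untreated library; a symbol is a library and the dash with bars the mean ± SD. Ndufa4, Atp5g3, Atp5b, Sdhd and Uqcrfs1 separate benzamil from DMSO libraries, Ndufb2 is called higher with benzamil, Uqcr11 is lower in both untreated libraries than in every other library, and Cox6c overlaps in all 3 groups.

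DMSO skin was set against untreated skin to see what imiquimod with solvent did to these genes. Of the 71 tested members, 15 were called higher in DMSO skin and 0 lower, in edgeR, with 29 and 2 at an unadjusted p under 0.05. The 15 are 21.1% of those tested, against 9.93% of all genes that were higher, and 8.45% of all genes were lower. DESeq2 called 8 of 74 higher (10.8%, against 4.44% of all genes) and 0 lower (6.25% of all genes). In limma on the deposited values, 22 of 76 were higher, and that share of 28.9% is near the 24.1% of all genes that limma called higher; 2 were lower (5.51% of all genes). The median log2 fold change was 1.04 over the members and 0.18 over all genes, and 63 of 71 were above 0. In 37 members both untreated libraries lay below every DMSO library, and over all genes that share was 29.5%. These levels rest on few untreated reads, and the count was 8 without untreated library 1 and 9 without untreated library 2. Of the 15 members, 12 lost their call without untreated library 1 (edgeR adjusted p 0.0576 to 0.194), 9 without untreated library 2 (0.0537 to 0.284), 5 without DMSO library 1 (0.0538 to 0.101), 2 without DMSO library 2, and 1 each without DMSO library 3 and DMSO library 4. Under the other scalings, which shift all genes alike, the median of all genes lay between 0.05 and 0.28. In limma on the deposited log2 values, the medians were 0.67 over the members and 0.34 over all genes, 0.33 apart in place of 0.86.

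Atp5g3 was the 1 member whose call held in every fit without 1 library. Its 537 to 816 CPM in DMSO libraries stood against 135 and 134 CPM in untreated libraries, and it rose by 2.34 ± 0.44 (edgeR adjusted p = 0.000655). Atp5b rose by 1.92 ± 0.43 (adjusted p = 0.00275; 0.0913 without untreated library 1), at 40.4 and 178 CPM in untreated libraries. Atp5pb rose by 2.21 ± 0.56 (adjusted p = 0.00731; 0.102 without untreated library 1). The complex III subunits Uqcr11 and Uqcrq rose by 1.90 and 1.35 (adjusted p = 0.0103 and 0.0332). In complex IV, Cox7a2 rose by 1.54, Cox7c by 1.86 and Cox7b by 1.33. Ndufb5 rose by 1.36 and Atp5mpl by 1.53.

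For 5 further called members the untreated libraries held 3 reads or fewer. Ndufa4 had 559 DMSO and 3 untreated reads, which gives a ratio of 13.4 (95% interval from counting error, 4.58 to 65.4). It was at 0 and 44.5 CPM in the untreated libraries, and its call was lost without untreated library 1 (adjusted p = 0.0576). Ndufa7 had 176 DMSO and 3 untreated reads (ratio 4.23, interval 1.42 to 20.7), and Ndufb10 had 127 DMSO and 1 untreated read (ratio 9.16, interval 1.61 to 365). Sdhd and Atp5md had 111 and 106 DMSO reads and 0 untreated reads, so they were at least 2.67-fold and at least 2.55-fold higher in DMSO skin, against a floor of 3 reads over both untreated libraries. Intervals and floors cover counting error only.

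DMSO libraries enter both comparisons, so their values are given side by side and no overlap of calls is read as a result. Ndufa4 averaged 32.4 ± 6.69 CPM in benzamil skin, 228 ± 118 CPM in DMSO skin and 22.3 ± 31.5 CPM in untreated skin (SD, n = 4, 4 and 2). Atp5g3 averaged 171 ± 98.9, 677 ± 147 and 134 ± 0.788 CPM in the same groups, and Atp5b 148 ± 43.7, 400.4 ± 80.2 and 109 ± 97.3 CPM. Uqcrfs1 averaged 38.0 ± 12.9, 107 ± 31.0 and 35.7 ± 12.4 CPM. These 4 members were chosen for their fall with benzamil, and other members had another order. Uqcr11 averaged 157 ± 41.9, 157 ± 23.5 and 41.8 ± 17.1 CPM in benzamil, DMSO and untreated skin, and Cox7a2 averaged 179.6 ± 49.1, 243.5 ± 38.8 and 84.9 ± 5.82 CPM.

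Benzamil skin against untreated skin gave 1 call, higher, among the 71 members, against 2.44% of all genes called higher and 1.56% called lower. The called member was Uqcr11, a small subunit of complex III (chromosome 10, 80402997 to 80406830, mm10). Its level was 124, 177, 120 and 207 CPM in benzamil libraries, against 53.8 and 29.7 CPM in untreated libraries. The groups did not overlap, and the log2 fold change was 1.86 ± 0.52 (edgeR adjusted p = 0.0383). DMSO libraries held 170, 178, 125 and 156 CPM of it, and benzamil and DMSO libraries overlapped (-0.04, adjusted p = 0.921). The call was lost without benzamil library 2 (adjusted p = 0.0703), benzamil library 4 (0.0623), untreated library 1 (0.0941) or untreated library 2 (0.184). At an unadjusted p under 0.05, 11 members were higher and 0 lower in edgeR, while DESeq2 called 0 in either direction, against 2.35% of all genes higher and 2.05% lower. Over all genes the split of 128 higher and 82 lower became 63 and 105 with total counts, and 88 and 127 without mitochondrial and ribosomal RNA genes in the totals. The median log2 fold change was 0.37 over the members and 0.17 over all genes.

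**Figure D4:**
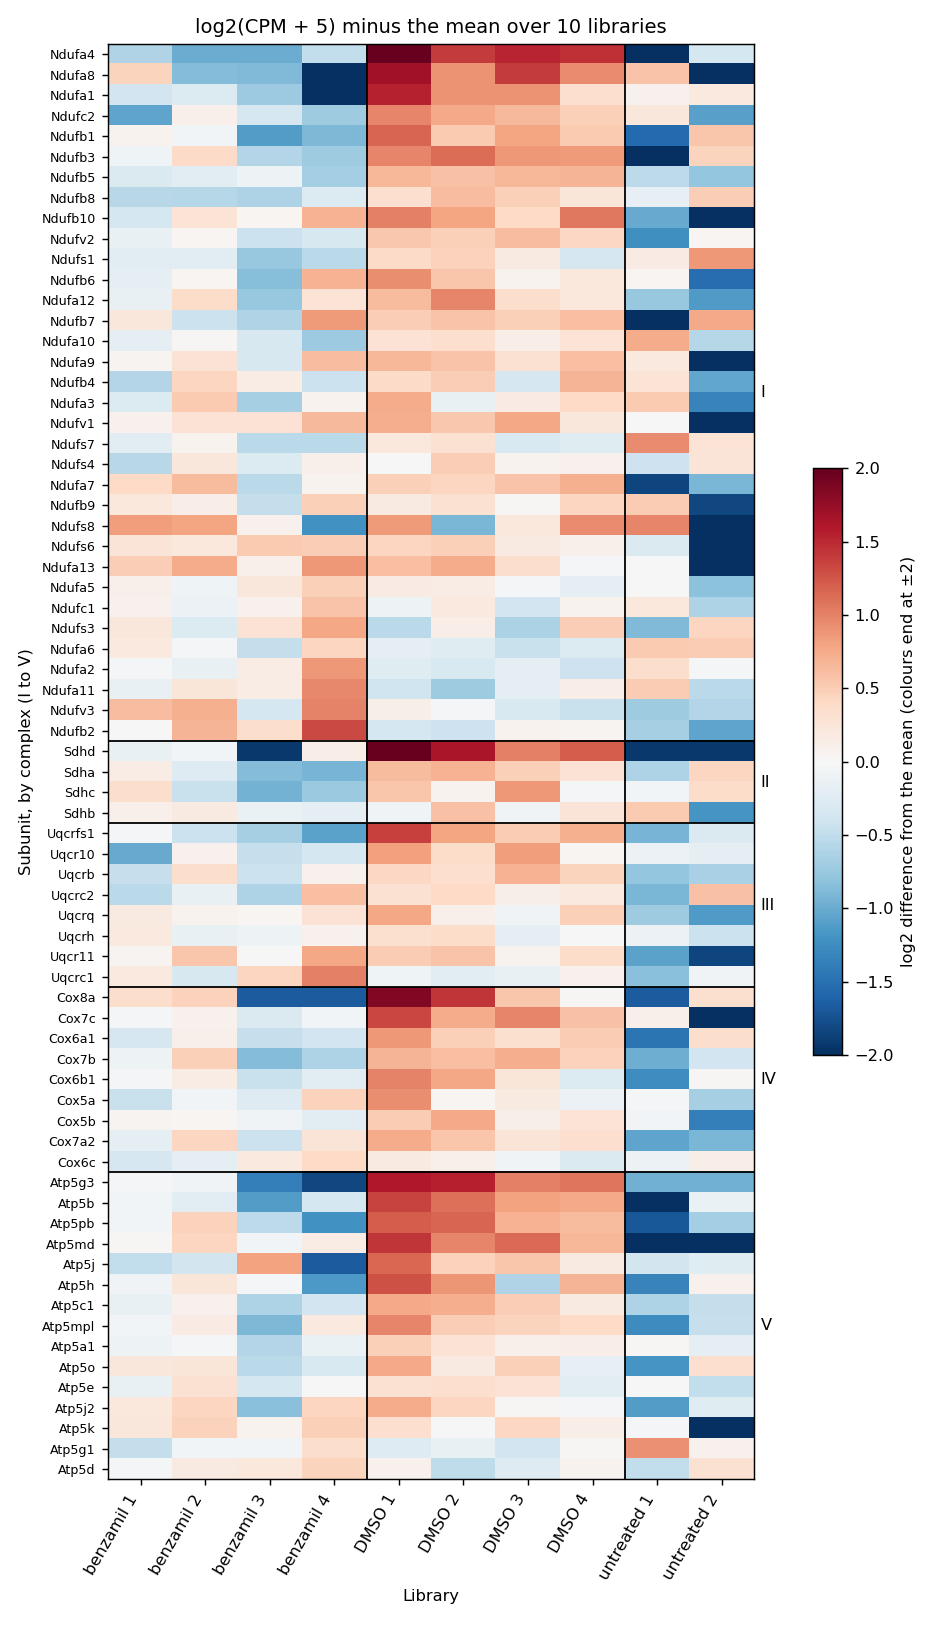
Level of 70 of the 71 tested subunits (rows, grouped by complex) in each of the 10 libraries (columns) as log2(CPM + 5) minus the subunit's mean over the libraries; red is above and blue below that mean. The 4 DMSO libraries are mostly red, while benzamil and untreated libraries are mostly pale or blue, with benzamil library 4 red for several complex I members such as Ndufb2.

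Subunits with a muscle isoform were looked at in pairs, because ear skin lies over muscle. The muscle isoforms Cox6a2, Cox7a1 and Cox8b were too low to be tested in all 3 groups, with 11, 13 and 10 reads over the benzamil libraries, against 14, 4 and 7 over the DMSO libraries. Cox6a2 and Cox8b had 4 and 5 untreated reads, in libraries of far lower depth. Within the benzamil and DMSO libraries and with no filter on low counts, Cox7a1 was higher with benzamil (2.51 ± 0.84, edgeR adjusted p = 0.0366), at 12.1, 20.0, 20.0 and 0 CPM in benzamil libraries, against 0, 5.40, 3.68 and 2.78 CPM in DMSO libraries. Cox8b (1.48, adjusted p = 0.225) and Cox6a2 (0.62, adjusted p = 0.598) were not called in that fit. The widely expressed partner Cox8a was lower in it (-1.66 ± 0.54, adjusted p = 0.031), and in the test over all groups it was not called (-1.60 ± 0.61, adjusted p = 0.0619). Cox6a1 fell with benzamil as given above, and Cox7a2 was not called (-0.45, adjusted p = 0.137). The 3 other untested members were Ndufb11, with 18, 64 and 2 reads in benzamil, DMSO and untreated skin, Ndufs5, with 10, 16 and 0, and Atp5l, with 4, 13 and 6.

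Other genes of mitochondrial respiration were read from lists. Of 7 tested subunits and associated proteins that the name pattern leaves out, 1 fell and 1 rose with benzamil. Each is 14.3%, near the 12.1% of all genes that fell and the 9.91% that rose. The median log2 fold change of the 7 was -0.70. Cytochrome c1 (Cyc1) fell by 1.40 (± 0.31, edgeR adjusted p = 0.00199), while Cox7a2l, a supercomplex assembly factor, rose by 1.44 (± 0.25, adjusted p = 0.000199). Cox7a2l averaged 543 ± 134 CPM in benzamil skin, 199.7 ± 35.7 CPM in DMSO skin and 634 ± 436 CPM in untreated skin. The order of these means was opposite to that of Atp5g3, but the untreated libraries differed widely. With untreated library 1 left out, the log2 fold change of Cox7a2l in DMSO over untreated skin was -0.64. Ndufab1, the acyl carrier protein of complex I, had 15.2, 20.0, 13.3 and 15.9 CPM in benzamil libraries, against 41.6, 35.1, 40.5 and 27.8 CPM in DMSO libraries. Its groups did not overlap, and it was not called (-1.14 ± 0.43, adjusted p = 0.0578). Cytochrome c (Cycs, -0.67), Higd1a (-0.70) and Higd2a (-0.73) were not called either (adjusted p 0.117 to 0.137). Cox4i1, a nuclear-encoded subunit of cytochrome oxidase, averaged 251 ± 33.2 CPM in benzamil skin and 236 ± 27.4 CPM in DMSO skin (0.06, adjusted p = 0.871). Among the subunits encoded in mitochondrial DNA, 2 of 6 tested fell with benzamil (33.3%, against 12.1% of all genes), and 4 were not called. Those that fell were mt-Nd1, by 1.05 (edgeR adjusted p = 0.0014), and mt-Cytb, by 1.26 (adjusted p = 0.00476). The summed level of mRNAs encoded in mitochondrial DNA overlapped between the groups. It was 8196 to 17430 CPM in benzamil libraries and 15320 to 21600 CPM in DMSO libraries.

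Carriers and outer-membrane proteins of mitochondria, which move nucleotides, phosphate and precursor proteins, were read next. Their list also held Immt, Chchd3 and Chchd10, which are neither, and the counts below include them. With benzamil, 10 of 16 tested genes fell (62.5%, against 12.1% of all genes) and 0 rose, with a median log2 fold change of -1.01. Of the 10, Slc25a3, Vdac1, Vdac2, Tomm7, Tomm22 and Tomm70a lost their calls in at least 1 fit without 1 library. Tomm40 had enough reads for a test in 6 of 8 such fits. The ADP/ATP carrier Slc25a5 fell by 2.34 (± 0.28, edgeR adjusted p = 3.23e-06), the import channel gene Tomm40 by 2.80 (± 0.60, adjusted p = 0.00155), the cristae protein Chchd3 by 1.10 and Chchd10 by 1.57. In DMSO over untreated skin 6 of the 16 genes rose (37.5%, against 9.93% of all genes) and 0 fell. The phosphate carrier Slc25a3 rose by 1.65 ± 0.38 (edgeR adjusted p = 0.00362). Tomm7 and Tomm70a lost their calls without DMSO library 1 (adjusted p 0.0522 and 0.0581). With untreated library 1 left out, the log2 fold changes were 1.16 for Tomm7, 1.35 for Slc25a3, 1.58 for Slc25a5 and 1.83 for Tomm70a. With untreated library 2 left out, that of Immt was 0.87. Each of the 6 calls, that of Tomm22 included, depended on having both untreated libraries, which were shallow. Of 16 tested genes of the citric acid cycle and pyruvate dehydrogenase, 5 fell with benzamil and 0 rose, with a median of -0.65. Read against 12.1% of all genes, the 5 were Idh3b (-1.35), Pdhb (-1.11), citrate synthase Cs (-1.01), Idh3a (-0.89) and Mdh2 (-0.73), and Idh3b alone kept its call in every fit without 1 library (the others reached adjusted p of up to 0.113). Of 13 tested assembly factors 2 fell (15.4%, near the 12.1% of all genes), Ndufaf4 (-1.09) and Cox10 (-1.30), with a median of 0.02 over the 13; Cox10 lost its call in 8 of 8 fits without 1 library. Of the regulators, 0 of 4 tested (Yy1, Gabpa, Tfam and Pprc1) were called in any comparison, and Nrf1 and Esrra were too low to be tested.

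**Figure D5:**
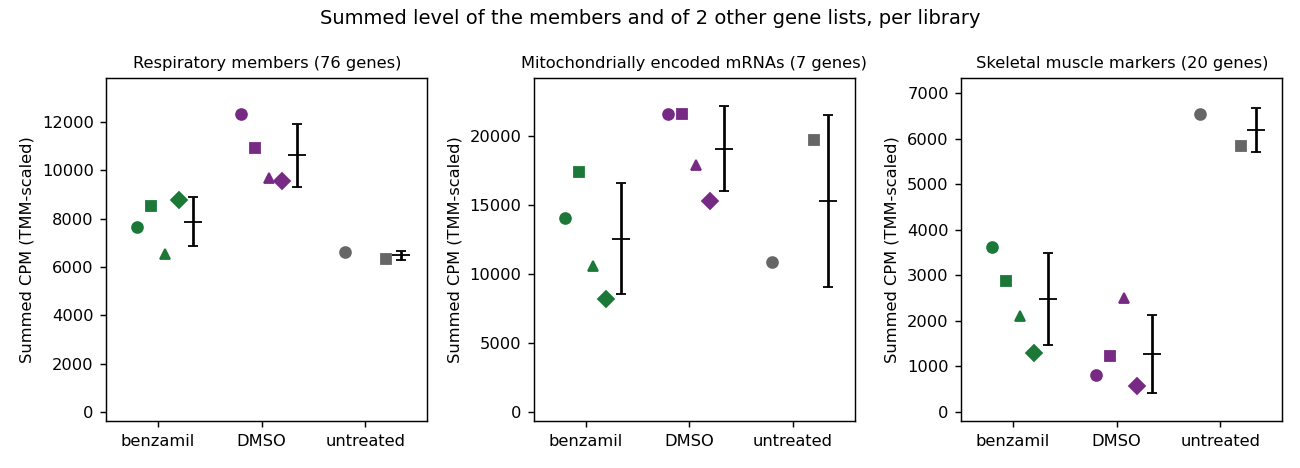
Summed CPM (vertical axis) of the 76 members, of 7 mRNAs encoded in mitochondrial DNA and of 20 skeletal muscle markers, in benzamil, DMSO and untreated libraries; symbols are libraries and dashes with bars mean ± SD. Members are lower in benzamil than in DMSO libraries, the mitochondrially encoded mRNAs overlap, and the muscle markers are highest in untreated libraries.

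Markers of several cell types moved with the groups. Over all genes, 9.91% rose and 12.1% fell in benzamil over DMSO skin. In DMSO over untreated skin 9.93% rose and 8.45% fell, and in benzamil over untreated skin 2.44% rose and 1.56% fell. Of 16 tested skeletal muscle markers, 9 rose and 0 fell in benzamil over DMSO skin. In DMSO over untreated skin 12 fell and 0 rose. Both directions were opposite to those of the members. Of the 9 that rose with benzamil, Myl1 alone kept its call in every fit without 1 library. The others lost it in at least 1 such fit, with an edgeR adjusted p of up to 0.212 (Ryr1). The summed level of the muscle markers was 1294 to 3624 CPM in benzamil libraries and 569 to 2502 CPM in DMSO libraries. It was 6541 and 5844 CPM in untreated libraries. Of the neutrophil markers, of which 4 of 8 listed were in both tables, 3 of 3 tested fell with benzamil, in the direction of the members, with sums of 214 to 4249 CPM in benzamil libraries, 11030 to 18320 CPM in DMSO libraries, and 215 and 44.5 CPM in untreated libraries. S100a8 and S100a9, which inflamed keratinocytes also express, make up nearly all of that sum, and Retnlg was at 0 in benzamil and untreated libraries. Of 10 suprabasal keratinocyte markers, 4 rose and 0 fell in benzamil over DMSO skin, against the direction of the members. In DMSO over untreated skin 7 rose and 1 fell (median 1.08), in the direction of the members, and in benzamil over untreated skin 7 rose and 0 fell. Their sums were 52730 to 68680 CPM in benzamil libraries, 18490 to 36650 CPM in DMSO libraries, and 15520 and 20160 CPM in untreated libraries. Of 5 tested sebocyte markers 3 rose with benzamil, of 8 basal keratinocyte markers 3 rose, and of 4 adipocyte markers 1 rose, with 0 lower in each list. Among the keratinocyte, sebocyte and adipocyte markers that rose with benzamil, Itgb4, Lor, Plin2 and Cidea lost their calls in at least 1 fit without 1 library. In DMSO over untreated skin, 0 sebocyte markers rose and 1 fell, 2 basal keratinocyte markers rose and 3 fell, and 0 adipocyte markers rose and 2 fell. Calls of Fabp4, Car3, Krt5, Itgb4, Mylpf, Ryr1, Tnni2, Dcn, Flg, Dsc1 and Dsg1a in that comparison depended on having both untreated libraries. So did those of Ivl, Krt2 and Dsc1 in benzamil over untreated skin. Without untreated library 1, log2 fold changes in DMSO over untreated skin were -0.75 for Car3, -2.07 for Fabp4, 0.76 for Krt5 and -0.82 for Itgb4. Macrophage and dendritic cell markers (2 tested) and cartilage markers (1 tested) had 0 calls in any comparison. Of 6 tested fibroblast markers, 5 fell in DMSO over untreated skin, and their sums were 542 to 1067 CPM in DMSO libraries against 19000 and 8261 CPM in untreated libraries. The 3 ribosomal RNA genes (mt-Rnr1 and mt-Rnr2, both mitochondrial, and Rn18s-rs5) also took more reads with benzamil. Together they held 323800 to 632100 CPM in benzamil libraries and 214400 to 281800 CPM in DMSO libraries. The part of these cell types and of ribosomal RNA in the members' levels was not tested. Without mitochondrial and ribosomal RNA genes in the total, the members held 0.883% to 1.21% of reads in benzamil libraries, 1.40% to 1.67% in DMSO libraries, and 1.02% and 1.01% in untreated libraries, and benzamil and DMSO libraries still did not overlap.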

How the data were processed

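RNA of 10 ear skin libraries was measured with a 3' mRNA kit (500 ng of RNA, 150-cycle sequencing, molecular identifiers) per the labels' protocols. STAR, featureCounts and DESeq2 with mm10 were used per the submitters' processing notes; the sources used here give no version, strand setting or collapse of molecular identifiers. The authors deposited 2 tables of variance-stabilised log2 values, normalized separately, and DESeq2 tables with a mean signal, log2 fold changes, a Wald score and p-values. They also deposited a table of counts whose 61533 identifiers are all human, which was not used.

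The log2 values were turned back into reads by inverting the transform from its value at 0 reads. All values were whole within 0.001 reads, and 39116 of 39116 DMSO values in both tables were equal. The 9779 genes in both tables entered 1 edgeR fit (4.0.16, R 4.3.3) of 3 group means, with TMM scaling and filterByExpr (minimum 10 reads, total 15), which kept 5245 genes. Tests were quasi-likelihood F tests with Benjamini-Hochberg adjustment over those genes, called at 0.05. Standard errors are the log2 fold change divided by the root of F. CPM use the scaled library sizes. On simulated data, 174 of 181 genes changed by 2 log2 units were recovered for benzamil over DMSO, 112 of 175 for DMSO over untreated and 115 of 179 for benzamil over untreated. In the same order, 9, 7 and 8 unchanged genes were called. The simulation gave every gene the same spread. Its change was larger than that of most members called in benzamil over DMSO, so it does not give their rate of recovery.

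Members, gene lists and comparisons were chosen with earlier results of these data known, so counts over members are descriptions with no test over the list. Named were all called members, the member with the highest CPM and the largest change in each complex, isoform pairs, untested members, and up to 4 called genes of other lists by adjusted p; some further genes were named after their values were seen. Gene positions are from GENCODE M21, where all 77 members were found, 1 of them (Ndufb1) as a non-coding RNA. Near-identical pseudogenes exist for some members (5 have one named after them), and 16 have another gene within their last 1000 bases, so their reads are less certain. Values of 1 tested member are not reported here, though it is included in the counts and sums.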

Additional observations from a re-analysis of the deposited data

Results flagged for a closer look

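A library that stands apart was looked for in 94 groups of 4 libraries, and 2 were flagged, where chance flags about 1 in 20. The groups cover the summed levels and the members named by the rule above. Members named outside that rule, such as Ndufs1 and Uqcrc1, were not screened. Ndufa4 was at 405.2 CPM in DMSO library 1 and 162.1 to 176.6 CPM in the other 3 DMSO libraries. Atp5mpl was at 209.9 CPM in DMSO library 1 and 138.8 to 148.6 CPM in the others. That library was also the deepest, at 935714 reads. Without it, the log2 fold change of Ndufa4 was -2.38 for benzamil over DMSO (edgeR adjusted p = 2.18e-05) and 2.96 for DMSO over untreated (0.00275), and that of Atp5mpl was -0.53 (0.184) and 1.34 (0.07).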

How the results depend on the processing

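The fold changes of called members and the medians over all members kept their sign under the alternatives run. Fold changes near 0 of uncalled members did not: with 1 library left out, Cox6c (0.01) ranged over -0.11 to 0.15 and Atp5g1 (0.10) over -0.02 to 0.26. Over all genes the split in DMSO over untreated, 521 higher and 443 lower, became 431 and 536 without mitochondrial and ribosomal RNA genes in the totals, and the split in benzamil over untreated also turned, as given above. In benzamil over DMSO, 1 member was called higher, and 0 were with DESeq2 size factors, total counts, totals without mitochondrial and ribosomal RNA genes, no filter on low counts, DESeq2's Wald test, limma, the authors' deposited table, or benzamil libraries 3 and 4 left out; 2 were with only the groups compared or with the benzamil table's reads alone, with and without the filter. The count of 22 lower members became 35 with total counts and 9 without benzamil libraries 3 and 4, and ranged over 11 to 25 with 1 library left out (0 to 1 higher). The median of -0.50 became -0.75 with total counts and -0.32 with limma. In DMSO over untreated, 15 higher members became 8 with DESeq2 and 9 in the authors' deposited table, and 8 to 16 with 1 library left out. The 0 lower members became 1 with totals without mitochondrial and ribosomal RNA genes and 2 with limma. The median of 1.04 became 1.27 with no filter, 0.67 with limma, and 0.82 to 1.16 with 1 library left out. In benzamil over untreated, 1 higher member became 0 with DESeq2 size factors, total counts, totals without mitochondrial and ribosomal RNA genes, the replicate block, only the groups compared, DESeq2, or benzamil libraries 3 and 4 left out, and 0 to 2 with 1 library left out. Its median of 0.37 became 0.20 with total counts and with totals without mitochondrial and ribosomal RNA genes, 0.55 with no filter, and 0.25 to 0.54 with 1 library left out. The ratio of the members' summed level, benzamil over DMSO, was 0.74 and became 0.63 with total counts; benzamil over untreated was 1.21 and became 1.07 with totals without mitochondrial and ribosomal RNA genes. The cause of these changes was not tested.

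Same-numbered libraries deviated together little (correlations 0.000688 to 0.0686), so numbers were not taken as pairs. With the replicate number as a block, 22 members were lower and 1 higher in benzamil over DMSO, 17 higher in DMSO over untreated and 0 in benzamil over untreated. The fits without benzamil libraries 3 and 4 and on the benzamil table alone were chosen after seeing the data. Depth limits both comparisons with untreated skin, since both untreated libraries together gave a tested member a median of 9 reads.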
